A study of Mus musculus with 8 samples.

Results

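The core circadian clock genes described here are 10 genes that make up both limbs of the mammalian clock loop: Arntl, Clock, Per1, Per2, Per3, Cry1, Cry2, Nr1d1, Nr1d2 and Dbp. They were taken by symbol from a table of 34866 genes measured in the epididymal fat pad, a white adipose depot, of male mice, and all 10 were in the table. The control group was 4 libraries from mice with the genotype Aromatase flox/flox, in which the aromatase gene Cyp19a1 is flanked by loxP sites. The knockout group was 4 libraries of genotype aP2-Cre;Aromatase flox/flox, in which the promoter of Fabp4, also called aP2, drives Cre recombinase. Every animal of both groups thus carried the floxed alleles, and a group with the transgene alone was not analysed here. Fabp4 is known to be active in macrophages and endothelial cells as well as in adipocytes. The study set out to find genes downstream of Cyp19a1 in fat that bear on phosphorus metabolism. The ages of the mice and the time of day at which tissue was taken are not given in the sources used here. The clock genes were read to see how far the libraries differed in clock state, since their levels change with the time of day.

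In the clock loop the proteins of Arntl (BMAL1) and Clock pair on E-box sequences and switch on Per, Cry, Nr1d1, Nr1d2 and Dbp. PER and CRY proteins then block that pair, and the nuclear receptors encoded by Nr1d1 and Nr1d2 (REV-ERB alpha and beta) repress Arntl through ROR response elements. DBP is a transcription factor that binds D-box sequences. In mouse fat and other peripheral tissues Arntl peaks at nearly the opposite time of day from Dbp and Nr1d1, while the Clock transcript changes little over the day.

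The windows below, from 250 bases before to 50 bases after a start site, are printed because they hold the letters through which these limbs are known to act on each other. Sequences are from RefSeq on GRCm38.p6, 5′ to 3′ on the strand of the gene, with the matched letters in capitals. The motifs searched, on both strands, were CACGTG (E-box), TTATGNAA (D-box), and TAGGTCA and TGGGTCA (the core of the ROR response element). None of the matches printed overlap.
Arntl, chr7:113207261-113207560, plus strand: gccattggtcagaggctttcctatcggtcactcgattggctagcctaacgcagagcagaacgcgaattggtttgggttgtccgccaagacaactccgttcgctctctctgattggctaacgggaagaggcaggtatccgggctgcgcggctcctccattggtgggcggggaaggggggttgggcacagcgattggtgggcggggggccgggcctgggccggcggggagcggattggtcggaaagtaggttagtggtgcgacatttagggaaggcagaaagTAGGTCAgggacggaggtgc
Per1, chr11:69098699-69098998, plus strand: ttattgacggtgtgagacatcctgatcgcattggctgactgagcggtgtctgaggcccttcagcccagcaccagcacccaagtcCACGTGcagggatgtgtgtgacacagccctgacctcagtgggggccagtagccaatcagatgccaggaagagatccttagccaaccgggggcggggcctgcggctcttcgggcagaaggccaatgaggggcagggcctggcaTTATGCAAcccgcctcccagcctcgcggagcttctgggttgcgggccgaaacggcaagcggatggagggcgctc
Per3, chr4:151044616-151044915, minus strand: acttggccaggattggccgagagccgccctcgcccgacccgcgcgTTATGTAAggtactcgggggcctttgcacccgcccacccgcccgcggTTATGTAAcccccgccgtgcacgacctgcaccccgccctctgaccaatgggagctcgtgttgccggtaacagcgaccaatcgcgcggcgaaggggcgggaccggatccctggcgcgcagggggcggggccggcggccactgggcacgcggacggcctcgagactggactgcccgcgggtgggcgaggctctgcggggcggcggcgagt
Cry1, chr10:85185005-85185304, minus strand: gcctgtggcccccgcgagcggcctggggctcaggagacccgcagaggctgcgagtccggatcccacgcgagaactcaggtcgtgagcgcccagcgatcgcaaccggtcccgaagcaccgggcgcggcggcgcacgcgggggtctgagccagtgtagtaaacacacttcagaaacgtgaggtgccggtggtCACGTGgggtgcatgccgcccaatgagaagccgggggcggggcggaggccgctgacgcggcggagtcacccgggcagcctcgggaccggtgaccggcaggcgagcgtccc
In Arntl the letters TAGGTCA began at base 31 counted from the start. Per1 held CACGTG from base -166 and a D-box from base -24, Per3 held D-boxes from bases -205 and -158, and Cry1 held CACGTG from base -60. Of 32851 windows of 300 bases, 7.15% held CACGTG, 3.38% TTATGNAA, 2.61% TAGGTCA and 3.98% TGGGTCA. In all, 13 windows were found for 9 of the 10 genes, Per2 being the exception, and some genes had more than 1 start site. The windows of Clock, Cry2, Nr1d1, Nr1d2 and Dbp held none of these letters. Another window of Arntl (chr7:113207215-113207514) and another of Per1 (chr11:69099902-69100201) held none either and are not printed. A match is a string of letters and not a measured binding site.

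The libraries held 1538427 to 3053565 estimated counts, and 3 counts correspond to 0.982 to 1.95 CPM (counts scaled to a common total on trimmed-mean library sizes), a limit that covers counting error only. The targeted gene Cyp19a1 was at 0 to 5.02 estimated counts per library in both groups, so the deletion could not be checked. Adipocyte markers were abundant, summing to 68205 to 86345 CPM in control and 57518 to 82145 CPM in knockout libraries, and of 8 epididymis markers 4 were at 0 in every library. The epididymis list summed to at most 10.1 CPM, and its gene Adam7 reached 8.53 CPM in knockout replicate 3 and 3.77 CPM in control replicate 2. The summed macrophage markers did not overlap, with 963 to 1098 CPM in control and 1463 to 1855 CPM in knockout libraries. Lyz2 was the largest part of that sum, with means of 379 CPM in control and 682 CPM in knockout libraries. Of the 11 macrophage markers tested, all were higher in the knockout and 3 (Cd68, Lyz2 and Ctss) passed the threshold, where 0.168% of all genes did. The libraries of the genotypes overlapped for Mrc1, Cd14, C1qa, C1qb and C1qc. Fcgr1, which was not tested, averaged 4.79 CPM in control and 2.92 CPM in knockout libraries. In whole tissue, more cells of a type and more RNA per cell cannot be told apart. The part of the macrophage marker difference in the clock gene values was not tested. Mitochondrially encoded genes took 10.7% to 12.4% of the counts in control and 8.70% to 10.1% in knockout libraries, and the part of that was not tested either.

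No clock gene passed the test between the genotypes. Of the 10 genes, 0 had an adjusted p under 0.05 in edgeR's quasi-likelihood test over all 12480 genes tested, where 0.168% of all genes did. All 10 passed the low-count filter. At an unadjusted p under 0.05 there was 1 gene, Per2, where 6.39% of all genes had such a p, and in DESeq2 and limma-voom 0 of the 10 passed and 0 had an unadjusted p under 0.05. The libraries of the genotypes overlapped for all 10 genes, while 4.21% of all genes had no overlap. The median log2 fold change, knockout over control, was -0.10 over the 10 genes and 0.00 over all genes, with 7 of the 10 below 0 against 50.3% of all genes.

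**Figure D1:**
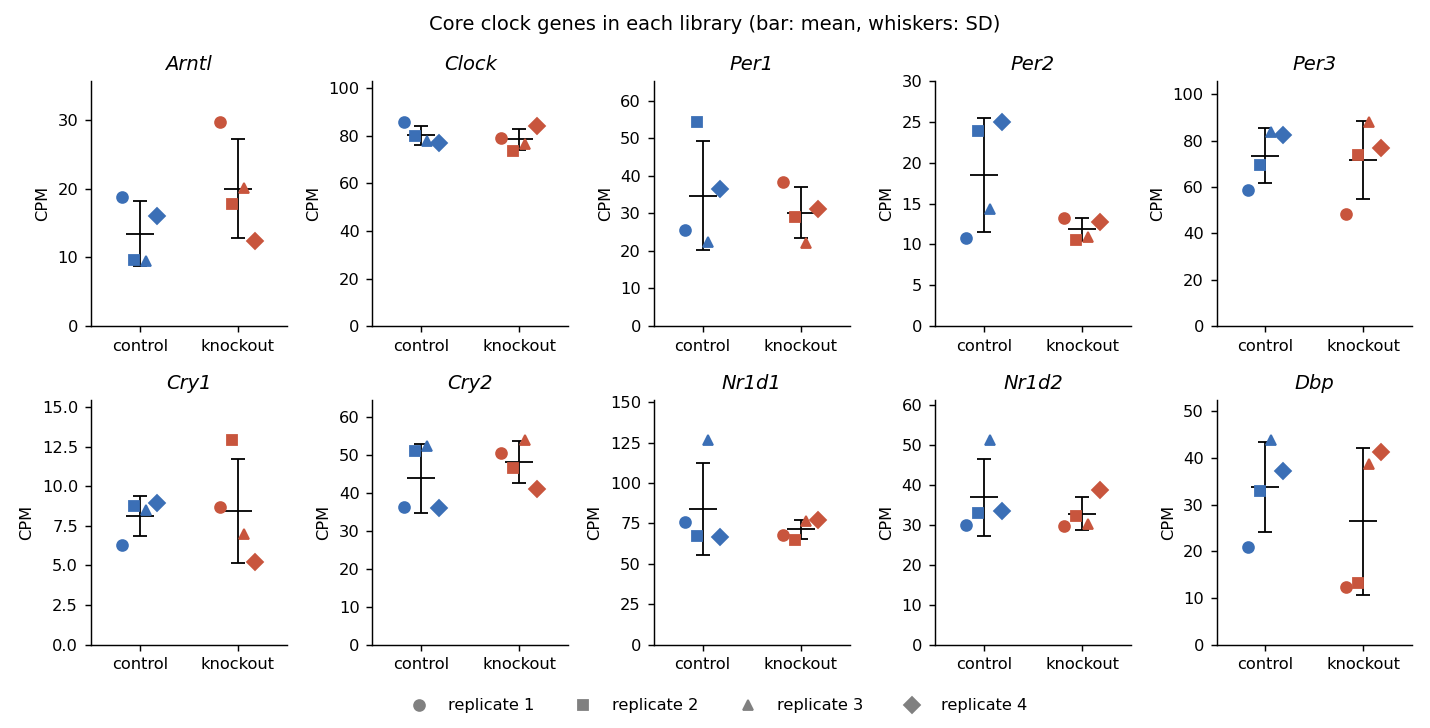
CPM (vertical axis, from 0) of each clock gene in the 4 control (blue) and 4 knockout (red) libraries; marker shapes are replicate numbers, the horizontal bar is the mean and the whiskers the SD. The groups overlap in every panel, Clock varies least, and Dbp in the knockout lies either near 13 CPM or near 40 CPM.

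The activators behaved differently from each other. Arntl, the partner that is rhythmic (chromosome 7, 113207465 to 113314126), was at 18.9, 9.62, 9.42 and 16.03 CPM in control replicates 1 to 4 and at 29.8, 17.8, 20.2 and 12.5 CPM in knockout replicates 1 to 4. Knockout replicates 1 and 3 lay above every control library, and the other 2 knockout libraries lay among them. The coefficient of variation of Arntl was 39.7% over the 8 libraries, against 17.1% from counting alone at 21 to 65 counts. The means were 13.5 ± 4.72 and 20.04 ± 7.24 CPM (SD, n = 4), a log2 fold change of 0.56 (standard error 0.31, 95% interval -0.10 to 1.21, edgeR adjusted p = 0.844). Clock (chromosome 5, 76209868 to 76304792) ranged only from 73.8 to 85.9 CPM over all 8 libraries, and its log2 fold change was -0.03 (95% interval -0.27 to 0.20, edgeR adjusted p = 0.984). Its coefficient of variation over the 8 libraries was 5.06%, beneath the 7.38% that counting alone gives at its 120 to 257 counts.

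Among the repressors Per1 and Per2 were the most spread, with coefficients of variation of 33.0% and 38.7% over the 8 libraries. Counting alone gives 11.9% for Per1, at 50 to 130 counts, and 17.4% for Per2, at 26 to 57 counts. Per2 (chromosome 1, 91415982 to 91459324) was at 10.8, 23.9, 14.4 and 25.0 CPM in control replicates 1 to 4 and at 13.3, 10.5, 10.9 and 12.8 CPM in the knockout libraries. Control replicates 2 and 4 stood above the rest, and control replicates 1 and 3 lay close to the knockout values. The Per2 log2 fold change was -0.62 (standard error 0.29, 95% interval -1.23 to -0.01, unadjusted p = 0.0476, edgeR adjusted p = 0.775). Per1, which also responds acutely to glucocorticoids and stress (chromosome 11, 69095217 to 69109960), was at 25.5, 54.4, 22.4 and 36.5 CPM in control replicates 1 to 4 and 38.5, 29.0, 22.1 and 31.2 CPM in knockout replicates 1 to 4. Control replicate 2 was its highest library, and without that library its log2 fold change went from -0.20 to 0.12. The E-box repressor gene Bhlhe40 had its highest values in the same control replicates 2 and 4, at 33.1 and 27.6 CPM against 8.70 to 21.3 CPM in the other 6 libraries.

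Per3 (chromosome 4, 151003652 to 151044665) spanned 58.8 to 83.9 CPM in control and 48.1 to 88.1 CPM in knockout libraries, with a log2 fold change of -0.03 (95% interval -0.40 to 0.35, edgeR adjusted p = 0.992). The lowest Per3 library was knockout replicate 1, which was also the highest for Arntl and the lowest for Dbp. Per3 lies inside the span of Camta1 on the same strand, with no shared exon bases, and Camta1 was at 22.0 to 34.7 CPM. Per3 and Cry2 transcripts hold repeats found in 391 and 1028 other genes of the table, but at most 17 and 9 words of 31 bases were shared with any of them. Cry1 (chromosome 10, 85131700 to 85185064) was the gene with the fewest reads, at 14 to 32 counts per library, and its coefficient of variation of 27.8% was close to the 23.2% of counting alone. Its log2 fold change was 0.06 (95% interval -0.69 to 0.80). Cry2 (chromosome 2, 92403646 to 92434043) spanned 35.9 to 52.2 CPM in control and 40.9 to 53.8 CPM in knockout libraries, with a log2 fold change of 0.13 (95% interval -0.22 to 0.48, edgeR adjusted p = 0.946). Cry2 exons overlap those of the antisense RNA D930015M05Rik, which shares 238 of the 6272 words of 31 bases in Cry2 transcripts on the opposite strand.

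The REV-ERB genes were set apart in 1 library. Nr1d1 (chromosome 11, 98767932 to 98775333) was at 75.9, 67.0, 126.4 and 66.7 CPM in control replicates 1 to 4 and at 68.1, 64.7, 76.2 and 76.9 CPM in the knockout libraries. Nr1d2 (chromosome 14, 18204054 to 18239127) was at 30.0, 33.1, 51.1 and 33.3 CPM in control and 29.8, 32.3, 30.3 and 38.7 CPM in knockout libraries, in the same order. Control replicate 3 was the highest library for both, 1.81 times the mean of the other control libraries for Nr1d1 and 1.59 times for Nr1d2. The log2 fold changes were -0.24 (95% interval -0.65 to 0.17, edgeR adjusted p = 0.922) for Nr1d1 and -0.17 (95% interval -0.57 to 0.23, edgeR adjusted p = 0.942) for Nr1d2. Without control replicate 3 they were 0.03 and 0.04.

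The 3′ end of Nr1d1 overlaps that of Thra, the thyroid hormone receptor alpha gene on the opposite strand, which shares 239 of the 3044 words of 31 bases in Nr1d1 transcripts. The estimated count of Nr1d1 was not whole in 7 of the 8 libraries, but the sum of Nr1d1 and Thra was whole to within 0.005 in 8 of 8, so reads had been divided between the pair and the Nr1d1 values contain apportioned reads. In control replicate 3 Thra was at 97.9 CPM, inside the 93.9 to 122.9 CPM of the other libraries. The sum of the pair was highest in that library too, at 224 CPM, with 158.5 to 195 CPM in the other 7. With the pair summed before the fit, an alternative chosen after seeing the data, the log2 fold change was -0.13 (edgeR adjusted p = 0.929).

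Dbp, an output gene with one of the deepest daily rhythms in mouse tissues (chromosome 7, 45705088 to 45710203), had the widest spread of the 10. It was at 20.96, 32.9, 43.8 and 37.2 CPM in control replicates 1 to 4 and at 12.4, 13.3, 38.6 and 41.3 CPM in knockout replicates 1 to 4. Knockout replicates 1 and 2 lay below every control library, while replicates 3 and 4 lay in the upper part of the control range. The means were 33.7 ± 9.60 and 26.4 ± 15.7 CPM (SD, n = 4), a log2 fold change of -0.32 (standard error 0.43, 95% interval -1.31 to 0.67, edgeR adjusted p = 0.949). The highest library was 3.54 times the lowest, with a coefficient of variation of 42.2% against 13.3% from counting alone at 27 to 126 counts. The 3′ end of Dbp overlaps that of the sphingosine kinase gene Sphk2 on the opposite strand, which shares 511 of the 3018 words of 31 bases in Dbp transcripts. Sphk2 was at 12.1 to 23.4 CPM, and the estimated count of Dbp was not whole in 4 libraries, while the sum of the pair was whole in 7 of 8, so Dbp values contain apportioned reads as well. The summed pair was at 44.4, 52.7, 64.1 and 56.4 CPM in control replicates 1 to 4 and 28.7, 34.3, 56.6 and 53.5 CPM in knockout replicates 1 to 4. Knockout replicates 1 and 2 were again below every control library and control replicate 3 was again the highest. With the pair summed before the fit the log2 fold change was -0.32 (edgeR adjusted p = 0.909).

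**Figure D2:**
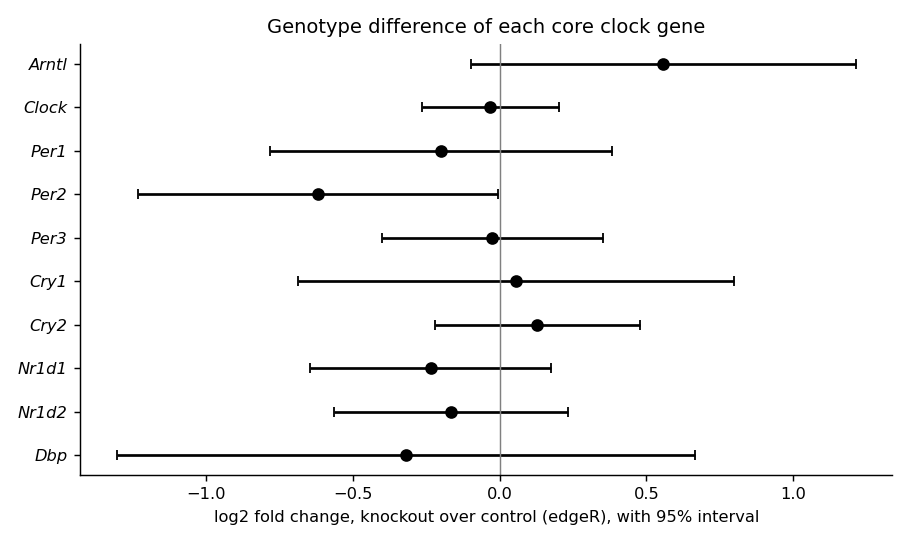
Log2 fold change of each clock gene, knockout over control, on the horizontal axis, with its 95% interval from the edgeR fit. The intervals include 0 for 9 of the genes, and that of Per2 runs from -1.23 to -0.01.

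The genotype intervals differed in width between genes. The interval for Arntl ran from 0.93-fold to 2.32-fold and that for Dbp from 0.40-fold to 1.59-fold. The interval for Cry1, at 14 to 32 counts, ran from 0.62-fold to 1.74-fold. For Nr1d1 the interval ran from 0.64-fold to 1.13-fold and for Clock from 0.83-fold to 1.150-fold. By role, the Per and Cry repressors had 2 log2 fold changes above and 3 below 0 with a median of -0.03. Nr1d1, Nr1d2 and Dbp had 3 below 0 with a median of -0.24, where 50.3% of all genes were below 0. In a grouping that overlaps both, the Per genes with Nr1d1, Nr1d2 and Dbp had 6 of 6 below 0, with a median of -0.22. That grouping leaves out Cry1 and Cry2, which the same activators switch on and which were above 0, at 0.06 and 0.13. The signs of Clock, Per1, Per3, Cry1, Nr1d1 and Nr1d2 turned when 1 library was left out, and those of Arntl, Per2, Cry2 and Dbp did not.

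Read library by library, the clock genes did not hold 1 level within either genotype. Control replicate 3 had the lowest Arntl of the 8 libraries, at 21 counts beside 23 in control replicate 2, together with the highest Nr1d1, Nr1d2 and Dbp. Knockout replicate 1 had the highest Arntl together with the lowest Nr1d2, Dbp and Per3. The within-library difference of Arntl minus Dbp in log2 CPM put these libraries at opposite ends, at -2.13 in control replicate 3 and 1.21 in knockout replicate 1, a range of 3.34. The other control libraries were at -0.15, -1.70 and -1.17 for replicates 1, 2 and 4, and the other knockout libraries at 0.39, -0.92 and -1.67 for replicates 2, 3 and 4. The control mean was -1.29 ± 0.85 and the knockout mean -0.24 ± 1.29 (SD, n = 4). The difference of 1.04 between genotypes was smaller than the SD within the knockout and larger than that within the control. Knockout replicates 1 and 2 lay above all control libraries and the other 2 lay within their range. Arntl minus Per2 differed by 1.08 between genotypes (SD 0.84 in control, 0.49 in knockout), with 2 knockout libraries above all control libraries. Arntl minus Nr1d1 differed by 0.72 (SD 0.78 in control, 0.56 in knockout), with 3 knockout libraries above all control libraries. These within-library differences were not tested.

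**Figure D3:**
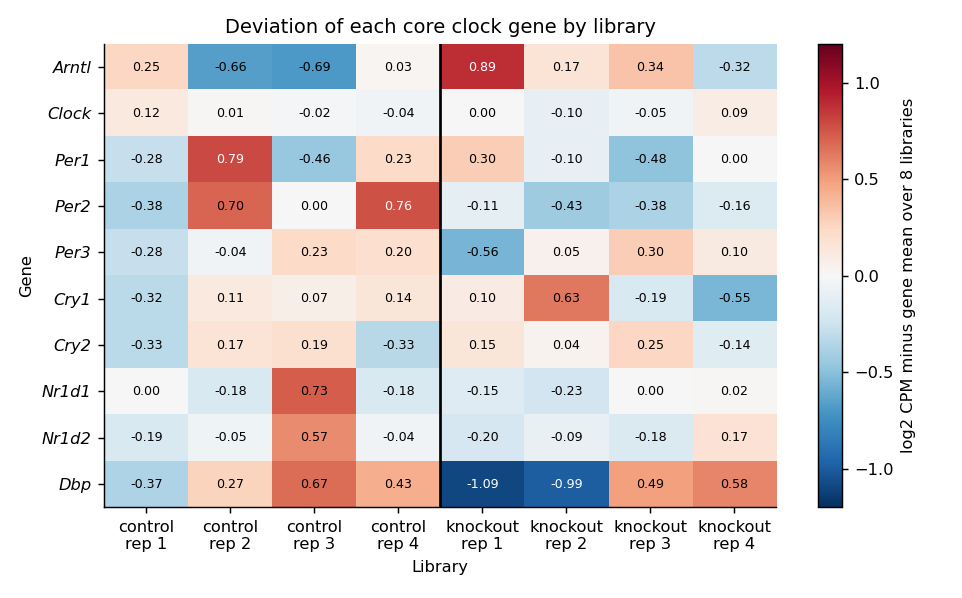
Log2 CPM of each clock gene (rows) in each library (columns) minus the mean of that gene over the 8 libraries; red is above and blue below the mean, and the black line divides control from knockout. Control replicate 3 and knockout replicate 1 show opposite colours for Arntl (-0.69 and 0.89) and Dbp (0.67 and -1.09).

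Relations between clock genes were examined in all 45 pairs over the 8 libraries on log2 CPM. By Pearson's r, 5 pairs had an unadjusted exact permutation p under 0.05, and none of the 45 passed after Benjamini-Hochberg adjustment, with a smallest adjusted p of 0.440. Arntl and Nr1d2 ran in opposite directions, with r = -0.73 (exact permutation p = 0.0324, adjusted p = 0.440) and Spearman's rho = -0.90 (exact permutation p = 0.00456, adjusted p = 0.205). Without the 2 libraries farthest from the median of Arntl, control replicate 3 and knockout replicate 1, r was -0.62. Arntl and Dbp gave r = -0.69 (exact permutation p = 0.0637, adjusted p = 0.478) and rho = -0.64 (exact permutation p = 0.0962, adjusted p = 0.618), and r = -0.36 without the same 2 libraries. As deviations from the genotype means these correlations were -0.71 for Nr1d2 and -0.63 for Dbp, so they were of like size with the difference between genotypes taken out. With 4 libraries a genotype, no correlation was computed within either one.

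Per3 and Dbp gave r = 0.76 (exact permutation p = 0.0297, adjusted p = 0.440) and rho = 0.81 (exact permutation p = 0.0218, adjusted p = 0.245). Without control replicate 1 and knockout replicate 1, r was 0.48. Per1, which like Per3 has a D-box in its window, gave r = -0.17 (exact permutation p = 0.699) and rho = -0.45 (exact permutation p = 0.267) with Dbp. Nr1d1 and Nr1d2 gave r = 0.86 (exact permutation p = 0.0489, adjusted p = 0.440) but rho = 0.33 (exact permutation p = 0.428, adjusted p = 0.799), and r was 0.13 without control replicate 3 and knockout replicate 2, so that relation rests on those libraries. The remaining pairs with an unadjusted p under 0.05 were Per1 with Per2 (r = 0.72, exact permutation p = 0.0478) and Clock with Cry1 (r = -0.83, exact permutation p = 0.0116), with rho of 0.52 (exact permutation p = 0.197) and -0.64 (exact permutation p = 0.0962). For these r was 0.44 and -0.61 without their 2 farthest libraries. By Spearman's rho 4 pairs had an unadjusted exact permutation p under 0.05. Beside Arntl with Nr1d2 and Per3 with Dbp they were Cry1 with Nr1d1 (rho = -0.83, exact permutation p = 0.0154, adjusted p = 0.245, r = -0.21) and Nr1d2 with Dbp (rho = 0.81, exact permutation p = 0.0218, adjusted p = 0.245, r = 0.56). Over the 45 pairs, 20 had a positive r and the median r was -0.01.

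**Figure D4:**
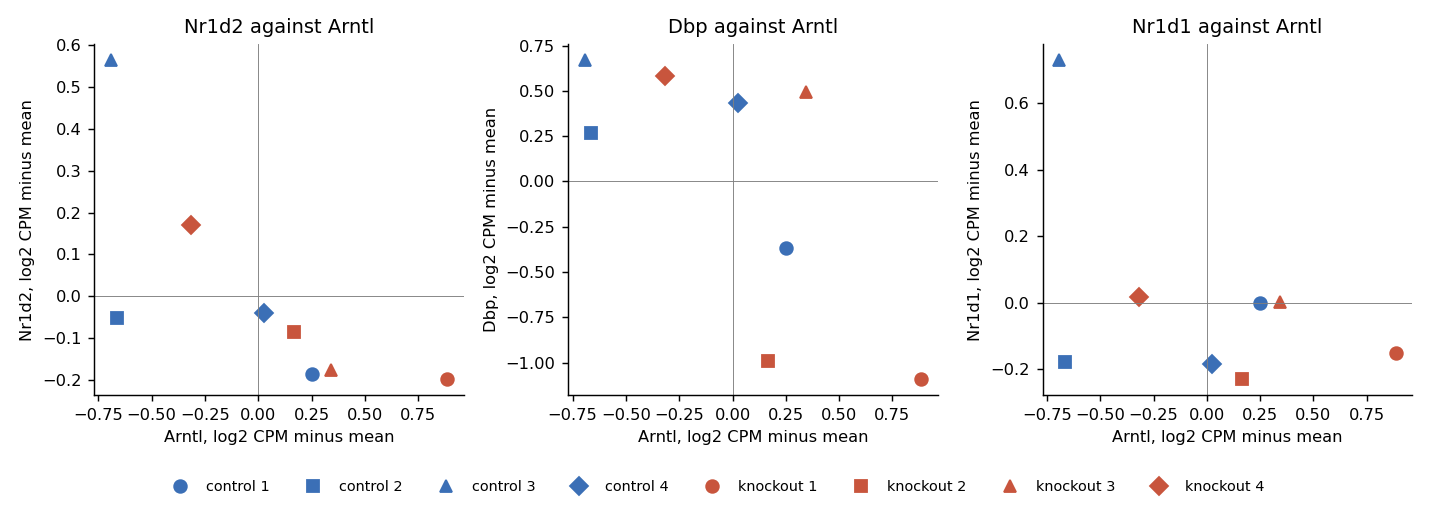
Log2 CPM minus the gene mean of Nr1d2, Dbp and Nr1d1 (vertical axes) against that of Arntl (horizontal axis) in 4 control (blue) and 4 knockout (red) libraries. Nr1d2 and Dbp are lowest where Arntl is highest, in knockout replicate 1, and control replicate 3 stands alone at the top left for Nr1d1.

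The wider clock machinery gave no call either. Of 23 other clock genes 19 were tested, 9 had log2 fold changes above and 10 below 0, with a median of -0.10, and 0 passed in edgeR, with 0 at an unadjusted p under 0.05. The PAR bZIP genes Tef and Hlf, relatives of Dbp, and Usp2, a ubiquitin protease gene that cycles in many tissues, had their highest values in control replicate 4. Tef was at 116 CPM there against 61.1 to 96.7 CPM elsewhere, Hlf at 45.5 CPM against 12.6 to 26.4 CPM, and Usp2 at 87.2 CPM against 27.9 to 65.2 CPM. Control replicate 4 was the smallest library. Their correlations with Dbp over the 8 libraries were 0.66, 0.54 and 0.57, given as descriptions of libraries that also share depth and composition differences.

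Genes that, like Arntl, are repressed by REV-ERB were covered by few reads. Npas2, a paralogue of Clock, had 11, 1, 9 and 1 estimated counts in control replicates 1 to 4 and 15, 16, 8 and 6 in the knockout libraries, and was removed by the low-count filter. Nfil3, a repressor that acts at D-boxes, had 0 counts in control replicate 3, the library with the highest Nr1d1 and Nr1d2, against 14 to 22 counts in the other 7. A count of 0 there allows up to 3 counts. The log2 fold change of Nfil3 was 0.30 (95% interval -1.05 to 1.64, edgeR adjusted p = 0.9752).

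Outputs of the clock and of the signals that reset it were read beside the core genes. Of 7 tested genes reported as rhythmic in many tissues, 0 passed, and Nampt alone had an unadjusted p under 0.05. Nampt, which encodes the rate-limiting enzyme of the NAD salvage pathway, lay without overlap at 150.7 to 207.7 CPM in control and 121.8 to 137.7 CPM in knockout libraries. Its log2 fold change was -0.50 (95% interval -0.76 to -0.23, edgeR adjusted p = 0.260). Of 10 glucocorticoid-responsive genes 0 passed, and the 2 with an unadjusted p under 0.05 were the metallothionein gene Mt2 and the phosphatase gene Dusp1, with log2 fold changes of 0.45 and 0.70 (edgeR adjusted p = 0.562 and 0.689). Their list had a median of 0.03, with 5 genes above and 5 below 0.

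Feeding also sets the phase of peripheral clocks. Of 10 genes that feeding induces in fat, 0 passed, 9 had log2 fold changes below 0 and the median was -0.40. Those with an unadjusted p under 0.05 were the lipogenic regulator Srebf1 (-0.38, edgeR adjusted p = 0.507), acetyl-CoA carboxylase gene Acaca (-0.55, edgeR adjusted p = 0.472) and Pnpla3 (-0.59, edgeR adjusted p = 0.580). Of 8 genes that fasting induces, 0 passed, 0 had an unadjusted p under 0.05, and the median was -0.10. The immediate early list had 15 of 18 genes above 0 with a median of 0.28, and 0 passed in edgeR, with 3 at an unadjusted p under 0.05. Over all genes 50.3% were below 0 and 6.39% had an unadjusted p under 0.05.

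The genes whose pattern over the 8 libraries was most like that of Arntl, among 10008 genes with a mean of at least 10 CPM outside the 10, were Marf1 (r = 0.98), Trim28 (0.97), Pigm (0.97), Usp42 (0.96) and Psmd11 (0.94). For Dbp they were Pik3r2 (r = 0.95), Nop16 (0.94), Emc4 (0.91), Nfu1 (0.91) and Arhgef10 (0.90). In all, 20 genes exceeded an r of 0.9 with Arntl and 9 with Dbp. These are the extremes of many comparisons over 8 libraries and are given as a description.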

How the data were processed

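RNA of epididymal fat was made into 8 libraries by BRB-seq, a 3′-end method, and 51 bases of the insert read were sequenced, per the labels' protocols. The authors deposited estimated counts for each gene, not normalized, and 59.6% of the 142154 values above 0 are whole. The submitters' processing notes name Salmon and GRCm38. The version, annotation, strand setting and use of molecular identifiers are not given in the sources used here.

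Identifiers were matched without version to GENCODE release M21 (GRCm38), which held 34582 of 34866. Counts were rounded and fitted over the whole table with edgeR 4.0.16 (robust quasi-likelihood F test, genotype as the only term, TMM factors, filterByExpr). P-values were Benjamini-Hochberg adjusted over 12480 genes at a threshold of 0.05. The fit was tested on simulated data. Intervals are 95% intervals from its standard errors. Within-library differences and correlations used log2 CPM with a prior count of 2, and exact permutation tests are two-sided. The counting coefficient of variation is that of Poisson sampling, and amplified reads are not independent molecules. Replicates differed by 4.48 to 9.40 in chi-square per degree of freedom, so none looked like a library deposited in duplicate. The labels do not say that they are separate animals, so p-values measure the spread between libraries.

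Results were recomputed with DESeq2 1.42.0, run without the low-count filter on 22958 genes, and with limma-voom with sample quality weights (limma 3.58.1). Other fits used RLE or upper-quartile factors, no filter, genes kept from 80 counts in all, or a replicate block. Further fits left out each library in turn or summed the overlapping pairs (added after seeing the data). For log2 CPM, a prior count of 0.5 and deviations from genotype means were also used. Named genes are the 10 members, genes of the clock, output, hormone and feeding lists with an unadjusted p under 0.05, genes overlapping a member, and the 5 most like Arntl and Dbp. Tef, Hlf, Usp2, Bhlhe40, Npas2 and Nfil3 were chosen after their values were seen. The members and lists were chosen with earlier results of these data known.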

Additional observations from a re-analysis of the deposited data

Results flagged for a closer look

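Each clock gene, and the Arntl minus Dbp difference, was examined within each genotype for a library far from the other 3 by Dixon's test. This flagged a library in 3 of 22 sets of values, where chance gives 1.1 (about 1 in 20). The flags fell on control replicate 3 for Nr1d1 and Nr1d2 and on control replicate 1 for Cry1. The sets are not independent, since the Arntl minus Dbp difference is built from members.

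Control replicate 3 stood apart for both REV-ERB genes. Nr1d1 reached 126.4 CPM there, while its neighbours held 66.7 to 75.9 CPM, and Nr1d2 reached 51.1 CPM beside 30.0 to 33.3 CPM. The same library had the lowest Arntl, 0.63 times the mean of the other control libraries, and the highest Dbp, 1.44 times. In control replicate 1, Cry1 was low at 6.29 CPM, with 8.52 to 8.98 CPM in the remaining controls.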

How the results depend on the processing

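None of the 10 clock genes passed in any fit run, with adjusted p-values of 0.671 at the lowest when 1 library was left out and 0.674 at the lowest otherwise. Arntl had an unadjusted edgeR p under 0.05 without the low-count filter (0.0442), without control replicate 1 (0.033) and without knockout replicate 4 (0.0283). Per2 also had one without the filter (0.0328), without control replicate 1 (0.00908) and without control replicate 3 (0.0365). Its unadjusted edgeR p was 0.0476 with RLE factors, 0.0454 with upper-quartile factors and 0.0475 with the filter on 80 counts. For Per2 the unadjusted p was 0.0626 in DESeq2, 0.110 in limma-voom and 0.0762 in edgeR with the replicate block. It was also above 0.05 in edgeR when any other library was left out. All 10 signs held under the settings that kept the 8 libraries. With 1 library left out, ranges that crossed 0 were -0.36 to 0.12 for Per1, -0.14 to 0.12 for Per3, -0.224 to 0.236 for Cry1, -0.0695 to 0.0044 for Clock, -0.33 to 0.0325 for Nr1d1 and -0.26 to 0.0365 for Nr1d2, while Arntl (0.31 to 0.79), Per2 (-0.82 to -0.46), Dbp (-0.63 to -0.10) and Cry2 (0.04 to 0.22) kept their sign. The median of the 10 ranged from -0.19 to 0.03. Over all genes 21 of 12480 passed, against 58 of 22958 without the low-count filter and 53 with DESeq2, also run on 22958 genes. It was 6 with the replicate block and 4 to 43 with 1 library left out. The lowest was without control replicate 2, the highest without control replicate 4. The cause was not tested.

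The correlation of Arntl and Dbp ranged from -0.83 to -0.50 with 1 library left out; its exact permutation p was 0.0448 without knockout replicate 2 (r = -0.76) and 0.0198 without knockout replicate 3 (r = -0.83). The Arntl minus Dbp difference between genotypes ranged from 0.56 to 1.51. Deviations of same-numbered libraries correlated at 0.25, -0.06, -0.01 and -0.24 over all genes, for replicates 1 to 4 in turn, and are not treated as pairs; the replicate block gave 0 clock genes past the threshold. Cry1, at 14 to 32 counts, is limited by depth.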
